A study of Mus musculus with 2 samples.

Results

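Z-disc genes were described in 2 RNA-seq libraries of newborn mouse heart. The 10 members, Actn2, Ldb3, Tcap, Csrp3, Myoz2, Nebl, Pdlim5, Pdlim3, Synpo2l and Fhl2, were chosen by symbol as proteins of the Z-disc and found by gene identifier, and all 10 were present among the 43346 mouse genes of both tables. The 23 transcript models listed for Ldb3, Pdlim5 and Nebl, of 103639 mouse transcripts, were examined as well. Both libraries come from animals of the B6NCrl strain at postnatal day 0, with no genetic change and no treatment in the labels. Pup 1 gave replicate 1 and pup 3 gave replicate 2, a whole heart each, and each library started from 13 pg of RNA over 200 nt, which the labels equate with 1 cell. They form 1 group, so no comparison of conditions exists and no test was made. The labels name separate pups, yet both libraries carry the same donor identifier.

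The Z-disc is the border between neighbouring sarcomeres, the contractile units of striated muscle. There, alpha-actinin cross-links the barbed ends of actin filaments from both sides, titin is anchored, and a set of PDZ, LIM and other adaptor proteins tie the filaments to one another, to the cell membrane and to signalling enzymes. Mutations in several of these genes cause cardiomyopathy in humans.

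Replicate 1 held 39671930 expected counts on mouse genes and replicate 2 held 32751851. Levels are TPM, transcripts per 1000000 scaled over mouse genes, a unit divided by transcript length, so that genes can be set beside each other. All 6 cardiomyocyte markers were read in both libraries at 1 TPM or more, from 36.6 TPM for Ryr2 to 18725 TPM for Actc1 in the mean of the libraries. Of 11 skeletal muscle markers, 8 were under 1 TPM in both libraries, and the skeletal myosins Myh1, Myh3, Myh4 and Myh8 had 0 counts. Ckm (4488 and 3996 TPM) and Myoz1 (21.4 and 19.9 TPM) were read in both. Mylpf had 411 reads and 22.1 TPM in replicate 1 and 0 reads in replicate 2. Fibroblast and endothelial markers were read in full, at summed levels of 1026 and 882 TPM for the 6 fibroblast genes and 489 and 380.5 TPM for the 5 endothelial genes in replicates 1 and 2. Of the marker lists for heart tissue, none went against the tissue label.

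Every Z-disc gene was read, from Actn2 at 1571 ± 248 TPM (SD, n = 2) down to Synpo2l at 55.6 ± 12.6 TPM. All 10 passed 1 TPM in both libraries, against 15.3% of all mouse genes and 28.4% of protein-coding genes, and 9 of 10 had a mean of 100 TPM or more, against 5.42% of protein-coding genes. Since the genes were chosen as parts of heart muscle, these shares describe their level and are no finding about the list. Their median level was 355 TPM, and the median of protein-coding genes read in both libraries was 31.1 TPM. Together they made up 0.530% of all TPM in replicate 1 against 0.683% in replicate 2 (0.606 ± 0.108%). In expected counts they took 0.782% of mouse reads in replicate 1 (exact Clopper-Pearson 95% interval 0.779 to 0.784%) and 0.928% in replicate 2 (0.925 to 0.931%), intervals that cover counting error only. Between 5271 and 162509 reads stood behind each member in either library. They were amplified from 13 pg of RNA and do not count starting molecules. The deposited posterior SD of the read count was 0 for all 10 genes in both libraries.

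**Figure D1:**
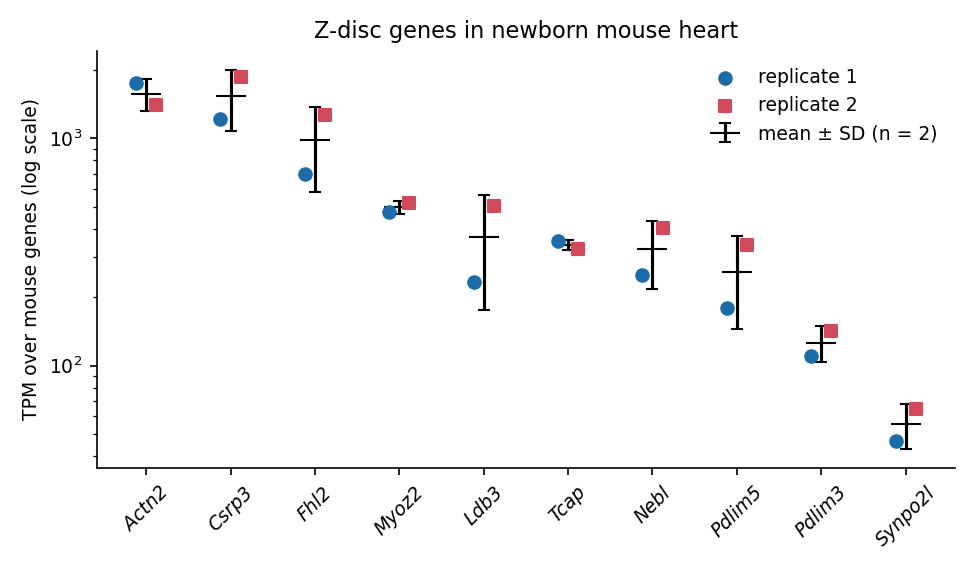
Level of each Z-disc gene in TPM over mouse genes on a log axis, in replicate 1 (circles) and replicate 2 (squares), with the mean and SD of the 2 libraries. Actn2 and Tcap lie higher in replicate 1, and the 8 other genes lie higher in replicate 2.

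Actn2 encodes sarcomeric alpha-actinin, the cross-linker on which the other members assemble. The gene lies on chromosome 13 (ENSMUSG00000052374, 12269426 to 12340760, minus strand, mm10). Its level was 1746 TPM in replicate 1 against 1395 TPM in replicate 2, ranking 58 and 84 among nuclear protein-coding genes. Of 4 filament genes set beside it, Actc1, the cardiac actin, had 13940 and 23510 TPM, Tnnt2, cardiac troponin T, had 8730 and 9166 TPM, and Myh6, a cardiac myosin heavy chain, had 2556 and 3893 TPM. Ttn, the gene of titin, had 147 and 649 TPM. Actn2 thus lay below the first 3 and above Ttn in both libraries.

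Csrp3 encodes the muscle LIM protein, a small adaptor that binds alpha-actinin and has been linked to mechanical sensing. On chromosome 7 (ENSMUSG00000030470, 48830398 to 48848033, minus strand), its level was 1211 TPM in replicate 1 against 1866 TPM in replicate 2. Per Actn2 transcript in the same library, Csrp3 stood at 69.4% in replicate 1 and 134% in replicate 2, so the leading position passed from Actn2 to Csrp3 between the libraries. Tcap, on chromosome 11 (ENSMUSG00000007877, 98383811 to 98384953, plus strand), encodes telethonin, the cap that joins the amino-terminal ends of neighbouring titin molecules. Replicate 1 gave 353 TPM and replicate 2 gave 327 TPM, or 20.2% and 23.4% of Actn2. Of all members, Tcap had the smallest difference between the libraries in TPM, at −0.11 on the log2 scale. With TMM or DESeq2 factors Tcap was at −0.18 or −0.22, and Myoz2 was closer, at 0.06 or 0.03.

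Fhl2, a LIM-only protein that binds titin and many signalling proteins, lies on chromosome 1 (ENSMUSG00000008136, 43123074 to 43196984, minus strand). Replicate 1 gave 695 TPM and replicate 2 gave 1262 TPM, a 1.81-fold difference, and the mean ranked after those of Actn2 and Csrp3. Myoz2, on chromosome 3 (ENSMUSG00000028116, 123006206 to 123035015, minus strand), encodes calsarcin-1, which holds the phosphatase calcineurin at the Z-disc and restrains it. It was nearly level, with 473.5 TPM in replicate 1 against 521 TPM in replicate 2. Synpo2l, also called CHAP, is an actin- and alpha-actinin-binding protein encoded on chromosome 14 (ENSMUSG00000039376, 20658946 to 20668354, minus strand). With 46.6 and 64.5 TPM it was the lowest member in each library, at 2.67% and 4.62% of Actn2.

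The PDZ and LIM proteins Ldb3, Pdlim5 and Pdlim3 bind alpha-actinin through an amino-terminal PDZ domain, and the LIM domains of the longer proteins bind kinases such as protein kinase C. Ldb3, also known as Cypher or ZASP, had 233 TPM in replicate 1 against 506 TPM in replicate 2. Pdlim5, also known as ENH, had 179 and 339 TPM. Pdlim3, also known as ALP and located on chromosome 8 (ENSMUSG00000031636, 45885461 to 45919548, plus strand), had 110.3 and 143 TPM. Their order was the same in both libraries, with Ldb3 highest and Pdlim3 lowest. Nebl, the gene of nebulette, a nebulin relative of heart muscle, had 249.7 TPM in replicate 1, above all 3, and 402 TPM in replicate 2, between Ldb3 and Pdlim5.

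In the order of means, neighbours were called apart where both libraries gave the log2 ratio the same sign and the mean was over 2 SD from 0, which with n = 2 is a description. This held for 4 of 9 neighbouring pairs: Csrp3 over Fhl2 (0.68 ± 0.17 on the log2(TPM + 1) scale), Nebl over Pdlim5 (0.36 ± 0.17), Pdlim5 over Pdlim3 (0.97 ± 0.39) and Pdlim3 over Synpo2l (1.18 ± 0.07). The order changed between the libraries for Actn2 and Csrp3 (0.05 ± 0.67), Ldb3 and Tcap (0.01 ± 0.87), and Tcap and Nebl (0.10 ± 0.56). Fhl2 over Myoz2 (0.91 ± 0.51) and Myoz2 over Ldb3 (0.53 ± 0.69) kept their order in both libraries but were within 2 SD of 0. Over all 45 pairs of members, 40 had the same order in both libraries and 35 were apart by this rule. The place of Nebl in these pairs, above Pdlim5 included, depends on the short length of its partial model Nebl-210, described below.

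Ldb3 is spliced into proteins that differ in the middle and at the end, and both choices can be read from the transcript table. The gene lies on chromosome 14 (ENSMUSG00000021798, 34526603 to 34588682, minus strand). Textbook knowledge assigns 1 internal exon to heart forms and an alternative group of exons to skeletal muscle forms, while a separate final coding exon ends the short protein before its LIM domains. The start of the heart exon (chr14:34577225-34577344), the start of the largest exon of the skeletal group (chr14:34571802-34571921) and the whole coding part of the short-form final exon (chr14:34561785-34561881) are shown because the shares that follow turn on them. They are GENCODE M21 transcript sequence in mm10 on the minus strand, printed 5′ to 3′, with the stop codon of the final exon in capitals.
Ldb3 heart exon, first 120 bases: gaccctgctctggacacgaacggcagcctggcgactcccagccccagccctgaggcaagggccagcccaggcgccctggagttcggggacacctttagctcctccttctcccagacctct
Ldb3 skeletal exon, first 120 bases: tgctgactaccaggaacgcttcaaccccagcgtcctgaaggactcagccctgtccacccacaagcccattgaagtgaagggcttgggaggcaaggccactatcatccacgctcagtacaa
Ldb3 short-form final exon: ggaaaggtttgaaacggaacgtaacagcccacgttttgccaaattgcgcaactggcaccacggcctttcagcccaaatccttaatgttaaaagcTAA

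Transcripts with the heart exon made up nearly all of Ldb3 in the newborn heart, 97.7% of its TPM in replicate 1 and 96.5% in replicate 2 (97.1 ± 0.81%, n = 2). The skeletal exon was carried by 2 of the 5 listed models, and they held 2.35% and 3.48%. The only short model listed, Ldb3-203, carries the heart exon, so all reads assigned to the short form count as heart form. GENCODE M21 lists 8 Ldb3 models and the deposited tables hold 5. Reads of a short form with the skeletal exon could not be assigned to a model of their own. Among heart forms, the short Ldb3-203, a protein of 327 residues that stops before the LIM domains, held 57.9% of TPM in replicate 1 and 74.3% in replicate 2. The long Ldb3-201, a protein of 723 residues, held 39.7% and 22.2%. By expected counts, which take no account of transcript length, the long form was instead ahead in replicate 1, with 14744 reads against 6630, and nearly equal in replicate 2, with 15189 against 15705. The posterior SDs of these counts were 46.3 to 167 reads, far less than the gap in replicate 1. In TPM, the short form had 135 and 376, 2.79-fold higher in replicate 2, while the long form had 92.4 and 112, 1.21-fold higher.

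Pdlim5 has the same kind of split, between long proteins with LIM domains and short ones without. It lies on chromosome 3 (ENSMUSG00000028273, 142239590 to 142395696, minus strand). The short forms end on their own final coding exon (chr3:142303328-142303421), and the leading form carries a pair of very small exons just upstream (chr3:142306284-142306298 and chr3:142304705-142304722). These are shown because the small exons separate the leading form from the next short form and the final exon separates short from long, again from GENCODE M21, minus strand, 5′ to 3′, with the stop codon in capitals.
Pdlim5 first small exon: taaccctggcactgt
Pdlim5 second small exon: gaaaattccacctaaacg
Pdlim5 short-form final exon: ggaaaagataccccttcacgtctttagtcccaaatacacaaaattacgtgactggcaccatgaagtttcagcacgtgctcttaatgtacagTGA

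Of Pdlim5 TPM, 91.8% in replicate 1 and 92.4% in replicate 2 lay on the 4 short models without a LIM pattern (92.1 ± 0.45%). The leading one, Pdlim5-205 with 239 residues and both small exons, held 72.9% and 64.6%. Pdlim5-202, short as well but without the small exons, held 18.0% and 27.2%. Its model is only 873 nt long, and by counts it held 7.14% and 11.5%, from 805 and 1961 reads. The 1 long model in the tables, Pdlim5-201 with 591 residues, held 8.23% and 7.61% of TPM, or 2339 and 3483 reads, which is 20.7% and 20.4% of the gene's counts. The long share was thus nearly equal in the libraries on either scale. GENCODE M21 lists 5 Pdlim5 models with a LIM pattern and the deposited tables hold 1, so reads from the others could not be assigned to their own models. The short final exons of Ldb3 and Pdlim5 were identical at 56 of 98 aligned positions (57.1%), gaps counted as differences.

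Nebl has separate starts for a pair of different proteins. Nebulette is a long chain of actin-binding nebulin repeats, and LIM-nebulette, also called LASP2, begins with a LIM domain and keeps only a few repeats. The gene (ENSMUSG00000053702) covers chromosome 2 from 17343909 to 17731464 (minus strand), and the first coding exons of nebulette (chr2:17460458-17460538) and LIM-nebulette (chr2:17730793-17730861) are shown because they separate the classes. The start codons are in capitals, from GENCODE M21, minus strand, 5′ to 3′.
Nebulette first coding exon: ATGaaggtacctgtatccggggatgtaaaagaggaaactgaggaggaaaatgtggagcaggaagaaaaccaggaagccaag
LIM-nebulette first coding exon: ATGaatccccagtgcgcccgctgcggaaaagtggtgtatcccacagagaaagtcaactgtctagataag

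The 4 models from the nebulette start held 71.3% of Nebl TPM in replicate 1 and 79.0% in replicate 2 (75.2 ± 5.47%). LIM-nebulette, the single model Nebl-201, held 13.3% and 7.10% (10.2 ± 4.42%). In TPM, the nebulette class had 178 and 317.5, 1.78-fold higher in replicate 2, whereas LIM-nebulette had 33.3 and 28.5, 1.17-fold higher in replicate 1. The higher Nebl level of replicate 2 therefore lay mainly with the nebulette class. Most of that class was assigned to Nebl-210 (60.5% and 68.8% of the gene), a model that the annotation marks as incomplete at its 3′ end, and the full nebulette model Nebl-202, of 1014 residues, held 2.19% and 2.70%. Nebl-206, another model from the nebulette start, held 8.62% and 7.49%. Nebl-208, a short non-coding model of 436 nt that has neither start, held 14.6% and 6.41% from 398 and 238 reads. By counts, LIM-nebulette took a larger part, 39.3% in replicate 1 and 23.5% in replicate 2. Its model is 5780 nt long and the full Nebl-202 is 8079 nt. The partial Nebl-210, with 6471 and 10053 reads, is only 1426 nt. TPM divides by these lengths, so the nebulette share and the TPM of Nebl depend on the short length of Nebl-210. Over the length of Nebl-202 the same reads would give less TPM and a smaller lead over LIM-nebulette. Which transcript those reads came from was not tested.

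**Figure D2:**
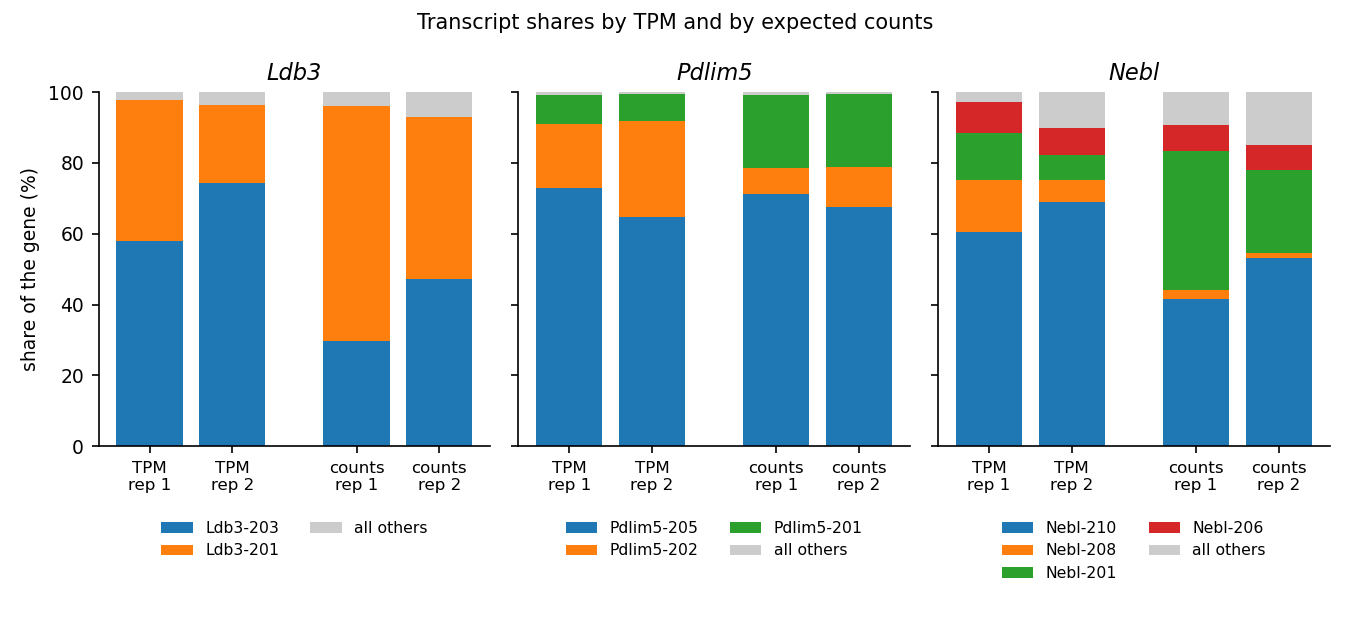
Share of each transcript model in its gene, in percent, for Ldb3, Pdlim5 and Nebl, in replicates 1 and 2, by TPM (left bars) and by expected counts (right bars). Models with a mean TPM share of 5% or more are coloured. The short Ldb3-203 and the partial Nebl-210 take less of their genes by counts than by TPM, and the long Ldb3-201, Pdlim5-201 and Nebl-201 take more.

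A LIM-type zinc-finger pattern was searched in the translated coding sequences (C, 2 residues, C, 16 to 23 residues, H, 2 residues, C, 2 residues, C, 2 residues, C, 16 to 21 residues, C, 2 residues, and C, H or D). It was found in at least 1 transcript of 6 members, Ldb3, Csrp3, Nebl, Pdlim5, Pdlim3 and Fhl2, and in 0.325% of 21877 protein-coding genes. Actn2, Tcap, Myoz2 and Synpo2l held none. Since LIM adaptors are known Z-disc proteins and the list was drawn by function, this is a property of the list. Single transcripts were examined only for Ldb3, Pdlim5 and Nebl, and in these 3 genes the pattern separates them. For all 3 the models with it held the smaller share of TPM in both libraries: 42.1% and 25.7% of Ldb3, 8.23% and 7.61% of Pdlim5, and 13.3% and 7.10% of Nebl. For Ldb3 this order turned in expected counts, where models with the pattern held 70.2% and 52.8%.

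Each member except Tcap has relatives in the same protein family, and 26 pairs of a member and a relative were compared within each library. The member was higher in both libraries in 23 of 26 pairs, and 17 of these were apart by the rule of 2 SD. Since members were chosen as parts of heart muscle and many pairs share a gene, these counts describe levels and are no finding about the list. Among actinins, Actn2 exceeded the widely expressed Actn4 by 3.98 ± 0.66 on the log2 scale and Actn1 by 8.65 ± 0.65, while Actn3, the actinin of fast skeletal muscle fibres, was listed at 0 counts in both. Csrp3 exceeded Csrp2 by 3.59 ± 0.06 and Csrp1 by 4.80 ± 0.52, members that are known from smooth muscle and other cells. Fhl2 exceeded Fhl1 by 2.93 ± 0.40 and Fhl3 by 8.48 ± 0.30.

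Cardiac forms also led in the families that have a skeletal muscle member. Myoz2 exceeded Myoz1, known from fast skeletal muscle, by 4.52 ± 0.17, and Myoz3 had 0 counts in both libraries. Myoz1 itself was present, with levels of 21.4 and 19.9 TPM. Nebl exceeded Nrap, a protein of forming myofibrils and intercalated discs, by 2.26 ± 0.36, and Lasp1 by 4.09 ± 0.32. In counts per 1000000 these differences were smaller, 0.82 ± 0.30 and 3.45 ± 0.11, and still apart. Neb, the giant nebulin of skeletal muscle, had 1 count in replicate 1 and 0 in replicate 2. Synpo2l exceeded Synpo2 by 1.33 ± 0.34 and Synpo by 2.00 ± 0.64, and in counts per 1000000 the difference from Synpo was no longer beyond 2 SD.

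The PDZ and LIM family was the least separated. Pdlim1, also called CLP36 or Elfin, had 216 TPM in replicate 1 against 372 TPM in replicate 2, within the range of the members. On the TPM scale, Pdlim3 over Pdlim1 was −1.17 ± 0.29 and Pdlim5 over Pdlim1 was −0.20 ± 0.10, both apart, and Ldb3 over Pdlim1 was 0.28 ± 0.24 and not apart. In counts per 1000000, a scale on which long transcripts gain, the first was −0.29 ± 0.48 and no longer apart, the second turned to 1.03 ± 0.15, and Ldb3 over Pdlim1 was 2.00 ± 0.16 and apart. Pdlim7, or Enigma, was nearly identical in the libraries, with 118.7 and 118.6 TPM, and its order against Pdlim3 differed between them. Pdlim4 was lower, at 26.4 ± 8.99 TPM. Pdlim2 had 745 reads and 28.9 TPM in replicate 1 and 0 reads in replicate 2, and all 3 members were above it in both libraries. None of these 3 pairs was apart in TPM, and in counts per 1000000 only Ldb3 over Pdlim2 was (7.41 ± 3.65), a value that depends on the pseudocount because Pdlim2 had no read in replicate 2. On that scale Ldb3 over Pdlim7 (2.78 ± 0.71) and Pdlim5 over Pdlim7 (1.81 ± 0.72) were apart as well, which in TPM they were not (1.52 ± 0.79 and 1.05 ± 0.65).

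**Figure D3:**
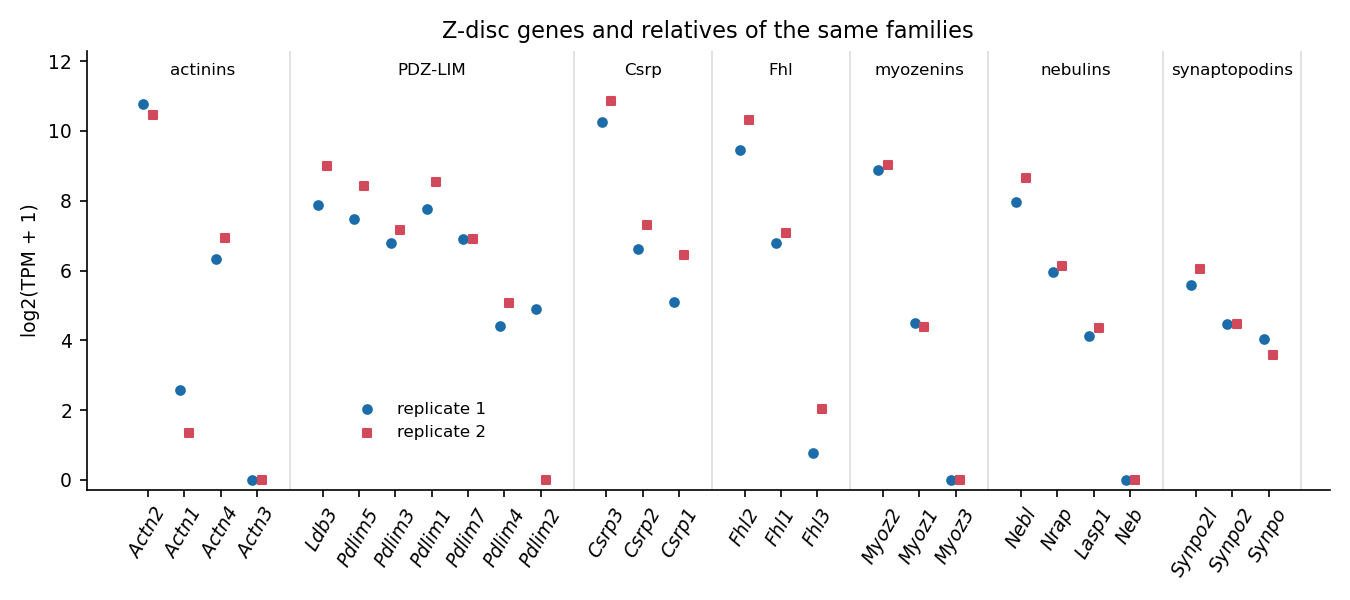
Level of each Z-disc gene (first in its family) and its relatives as log2(TPM + 1) in replicate 1 (circles) and replicate 2 (squares). Actn2, Csrp3, Fhl2, Myoz2, Nebl and Synpo2l lie above all relatives shown in both libraries, and Pdlim1 lies among the members of the PDZ-LIM family.

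Among 27 other genes of the Z-disc and its attachments, 22 reached 1 TPM in both libraries, where 28.4% of protein-coding genes did, and their median level was 56.8 TPM. The highest were Smpx, a small muscle protein, at 1016 ± 98.6 TPM, the small heat shock protein Cryab at 1015 ± 204 TPM and the titin-binding ankyrin-repeat gene Ankrd1 at 658 ± 238 TPM. Ilk, the integrin-linked kinase, followed at 345 ± 41.1 TPM, then desmin (Des), the intermediate filament around Z-discs, at 328 ± 87.5 TPM, and Capzb, of the actin-capping protein CapZ, at 262 ± 27.9 TPM. Myot, the gene of myotilin, and Ankrd2 had 0 counts in both libraries. Xirp2, without a count in replicate 1, reached 3.22 TPM in replicate 2. Trim54 reached 18.2 TPM in replicate 1 without a count in replicate 2, and Ankrd23 had 39.5 and 0.102 TPM. Where no count was found, up to 3 remain possible, or 0.0756 counts per 1000000 in replicate 1 and 0.0916 in replicate 2, by counting error only. That bound does not cover differences between libraries made from 13 pg of RNA, such as Trim54 (784 and 0 reads) and Xirp2 (0 and 1047 reads).

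**Figure D4:**
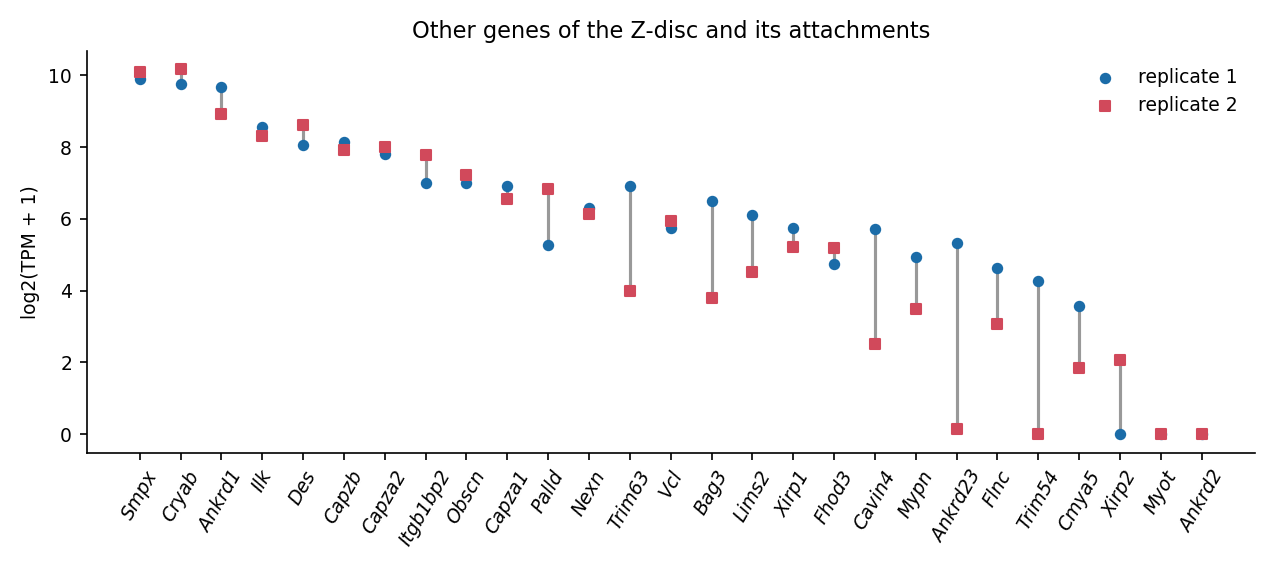
Level of the 27 other Z-disc and attachment genes as log2(TPM + 1) in replicate 1 (circles) and replicate 2 (squares), joined by a line and ordered by mean. Myot and Ankrd2 are at 0 in both libraries, and Ankrd23, Trim54 and Xirp2 were read at 1 TPM or more in only 1.

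Most members were higher in replicate 2, and 1 differed by over 2-fold. Of the 10, 8 were higher in replicate 2, against 50.2% of the 8266 genes whose mean reached 5 TPM, and the members' median log2 ratio of replicate 2 over replicate 1 was 0.54, against 0.01 over those genes. By level, Csrp3 but not Actn2 was higher there among members of 1000 TPM or more (background 61.6%), 4 of 5 were at 300 to 1000 TPM (43.1%), both were at 100 to 300 TPM (51.3%), and Synpo2l was at 30 to 100 TPM (50.5%). Only Ldb3 was over 2-fold apart (log2 ratio 1.12, 2.18-fold), where 54.6% of the 8266 genes were. Read at its own level, 1 of the 5 members with a mean of 300 to 1000 TPM passed that mark, against 14.1% of 311 genes, and 0 of 2 with 1000 TPM or more, against 9.93% of 151. Below these, 0 of 2 members at 100 to 300 TPM passed, against 24.3% of 779 genes, and Synpo2l did not, in a range where 42.6% of 2109 genes did. Pdlim5 (0.92), Fhl2 (0.86), Nebl (0.68) and Csrp3 (0.62) were next, and Actn2 was lower in replicate 2 (−0.32). Over all genes, the SD per library on the same scale was 0.44 at 1000 TPM or more, 0.60 at 300 to 1000, 0.66 at 100 to 300 and 1.21 at 30 to 100. Each member's difference was under 2 of these SDs at its level. They are for a single library, and so smaller than the SD of a difference between libraries.

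For Ldb3 the 2-fold mark depended on the unit. Its reads were 560 per 1000000 in replicate 1 and 1016 in replicate 2, a log2 ratio of 0.86, and the remainder came from its effective length, which fell from 2960 to 2399 nt with the larger share of the short form. In TPM, all 6 cardiomyocyte markers were also higher in replicate 2, most for Actc1 (log2 ratio 0.75) and least for Tnnt2. The Tnnt2 ratio was 0.07, an amount that the TMM or DESeq2 shift would cancel. Their sum was 32477 TPM, 13940 of it Actc1, in replicate 1 against 45293 TPM, 23510 of it Actc1, in replicate 2. The fibroblast and endothelial sums given above were lower there, although 2 of 6 fibroblast markers (Postn and Pdgfra) and 2 of 5 endothelial markers (Cdh5 and Tie1) were higher. The sum of 5 smooth muscle and pericyte markers was 77.3 and 87.1 TPM, with 3 higher in replicate 2. The sum of 5 macrophage markers was 166 and 111 TPM, and that of 3 red cell markers 3870.3 and 3865 TPM. The 11 skeletal muscle markers summed to 4532 and 4016 TPM, nearly all of it from the single gene Ckm (4488 and 3996 TPM). The part of these shifts in the members' difference was not tested. In bulk RNA, fewer cells of a type and less RNA per cell cannot be told apart, and each difference joins a heart, an RNA aliquot and an amplification without a replicate check. In the 24 other Z-disc genes whose mean reached 5 TPM the direction was mostly the other way, with a median log2 ratio of −0.31. There, 9 genes were over 2-fold higher in replicate 1, against 26.9% of the 8266 genes, and 1, Palld, was over 2-fold higher in replicate 2, against 27.7%.

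**Figure D5:**
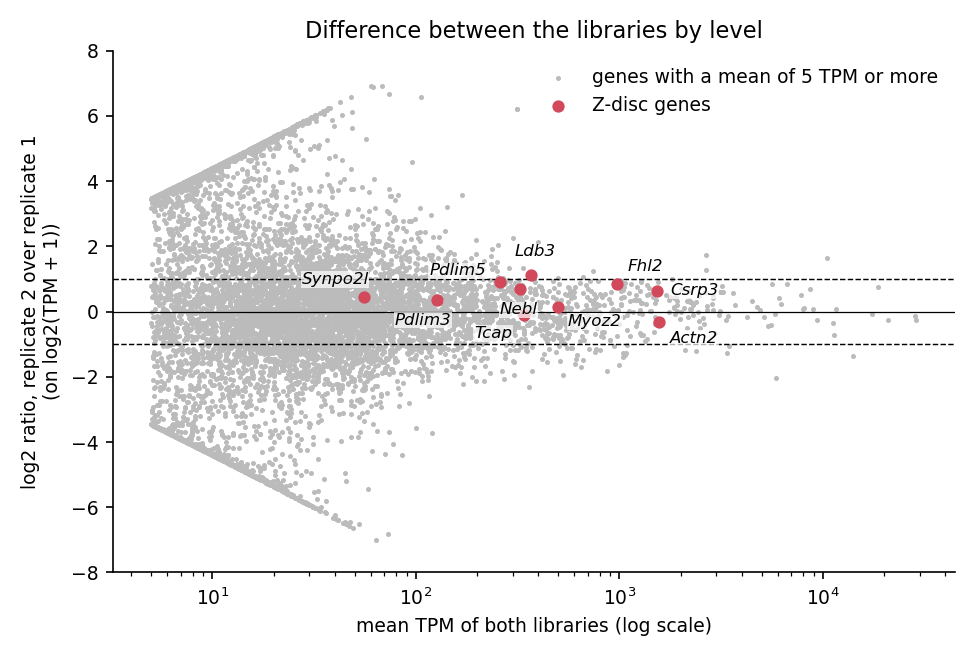
Log2 ratio of replicate 2 over replicate 1 on log2(TPM + 1) against the mean TPM (log axis) for genes whose mean reached 5 TPM (grey) and the 10 Z-disc genes (red), with dashed lines at 2-fold. Ldb3 alone among the 10 lies outside the dashed lines.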

How the data were processed

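RNA of the whole hearts of 2 newborn pups was sequenced after extraction with a mirVana kit and, per the labels' protocols, a Smart-seq procedure, and each library is 1 biological replicate of 1 group. The authors deposited a gene and a transcript table per library with expected counts (estimated reads, not normalized), TPM, and, for transcripts, each one's percent of its gene's TPM. Text notes deposited with the tables name mm10 and GENCODE M4. For the aligner and quantifier, the names were not given in the sources used here. The deposited posterior SDs and other interval bounds come from the same tables, with the interval level not stated.

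TPM was rescaled to 1000000 over mouse genes. Symbols, positions and transcript features came from GENCODE M21, matched without version, so models can differ from those counted, and the Ldb3 exon and LIM classes rest on models that do: lengths are equal in both releases for 13 of 13 Nebl models, 2 of 5 Pdlim5 models and 0 of 5 Ldb3 models. Ratios used log2(TPM + 1), and background genes a mean of 5 TPM or more. No strand rule for counting is given. The antisense gene Gm13324 within Nebl had 0 and 72 counts, and Gm8210 within Fhl2 1.59 and 160 counts. Members, lists, pairs and tests were chosen with earlier results of these data known, and the exons and transcript classes after the transcript values were seen. Named were all members and relatives, the 6 highest and all incompletely read genes of the wider list, and transcripts with a mean share of 5% or more. Alternatives were a pseudocount of 0.1, a threshold of 10 TPM, posterior means, counts per 1000000, TMM factors (edgeR 4.0.16), DESeq2 1.42.0 size factors on counts rounded to whole numbers, no filter, and single libraries. The ratio calculation was tested on simulated data. Python 3.11.15, pandas 2.3.3, Biopython 1.88 and R 4.3.3 were used.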

Additional observations from a re-analysis of the deposited data

How the results depend on the processing

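Expected counts in place of TPM, which leave out transcript length, moved the most. In counts the members' share was 0.855% of mouse reads, 0 members were over 2-fold apart, Ldb3-203 held 38.5% of its gene, Nebl-210 47.4%, Ldb3 models with the heart exon 94.6%, Pdlim5 models without a LIM pattern 79.4%, and Nebl models from the nebulette start 65.3%. Pdlim5 over Pdlim1 reversed to 1.03. Of 78 repeats of the family pairs under 3 alternatives, 71 kept their call and direction, 2 were no longer apart and 4 became so. Posterior means, the pseudocount, TMM and DESeq2 factors (shifts of −0.07 and −0.11) and the 10 TPM threshold changed no direction or call of the members' levels, ratios and counts. Single libraries lie within 1 SD of a mean of 2 by construction. No paired analysis was possible because there is 1 group. With 2 libraries each SD is rough. Each member rests on at least 5271 reads in each library, but these were amplified from 13 pg of RNA and do not count starting molecules.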
